A study of Mus musculus with 8 samples.

Results

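The 5 lysyl oxidase genes of the mouse (Lox, Loxl1, Loxl2, Loxl3 and Loxl4) and transglutaminase 2 (Tgm2) were followed in cultured keratinocytes (KCs), the epithelial cells of the epidermis. They were found by their symbol among the 41457 genes of the deposited tables, and all 6 members were present. The KCs came from the tails of adult wildtype C57BL/6 mice (C57BL/6J in the study's text), were untreated, and were grown on coated plates in serum-free medium with 0.06 mM Ca++ for 1 week (4 samples) or 3 weeks (4 samples), with splitting near confluence. Time in culture is therefore the only labelled difference, and all 8 samples share the strain, genotype, tissue and medium. The study describes 4 independent batches of KCs in 1 figure and 3 in another, and the same batches at both times. However, the labels tie no sample to a batch or mouse, so the spread between samples may in part be technical. The 6 members were chosen by their values in this very contrast, so their changes are given as a description, and no p-value is given for them.

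Lysyl oxidases are secreted, copper-dependent amine oxidases that turn lysines of collagen and elastin into reactive aldehydes, which then form covalent cross-links between the fibres. Lox and Loxl1 have a propeptide that is removed outside the cell, whereas Loxl2, Loxl3 and Loxl4 carry scavenger receptor cysteine-rich domains in front of the same catalytic domain. Tgm2 builds another kind of cross-link, a bond between a glutamine and a lysine side chain, uses calcium and an active-site cysteine, and binds fibronectin outside the cell. In the skin these bonds are best known from the dermis, where fibroblasts lay down collagen, while the cornified layer of the epidermis is cross-linked mainly by Tgm1 and other transglutaminases.

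The sequences that carry the chemistry of both enzyme families are shown first, since they tell the members apart. In every lysyl oxidase the copper is held by 3 histidines, and the codons of these histidines are in capitals below, within a coding stretch of 36 bases that starts at the tryptophan in front of them. The stretch of each gene runs across an exon junction, between exons 3 and 4 of Loxl1 (minus strand), 10 and 11 of Loxl2 (plus strand), 10 and 11 of Loxl3 (plus strand) and 11 and 12 of Loxl4 (minus strand), and the coordinates on GRCm38 therefore include an intron. Sequences were read from the GENCODE vM21 transcripts in the coding direction, and that of Lox is not printed.
Loxl1, chr9:58293717-58294381: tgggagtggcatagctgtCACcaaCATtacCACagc
Loxl2, chr14:69682316-69689040: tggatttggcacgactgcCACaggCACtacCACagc
Loxl3, chr6:83049995-83050128: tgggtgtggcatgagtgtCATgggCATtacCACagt
Loxl4, chr19:42598804-42599899: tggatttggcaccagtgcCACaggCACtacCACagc

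Loxl2 and Loxl4 differed at 2 of these 36 bases, and every other pair of the printed stretches at 9 to 12. Over the last 200 residues, which hold the catalytic domain, Lox and Loxl1 were 75.0% identical, and Loxl2, Loxl3 and Loxl4 were 66.5% to 70.2% identical to each other. Identity between these subgroups was 50.6% to 57.3%. The proteins have 411 residues (Lox), 607 (Loxl1), 776 (Loxl2), 754 (Loxl3) and 758 (Loxl4). The genes that changed together in the values below do not follow these subgroups, since Lox and Loxl2 moved furthest and Loxl1 and Loxl4 least.

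The active site of Tgm2, a protein of 686 residues, is built on the cysteine at residue 277, whose codon is in capitals in the stretch of 24 bases below. Tgm1, the transglutaminase of the cornified envelope, is shown beside it as the family member that KCs are known for, with its cysteine at residue 376. The stretch lies in exon 6 of Tgm2 and in exon 7 of Tgm1, both on the minus strand of GRCm38.
Tgm2, chr2:158131347-158131370: tacgggcagTGCtgggtgtttgca
Tgm1, chr14:55709410-55709433: tacggccaaTGCtgggtctttgcc

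Poly(A) RNA of each sample was sequenced, and the exon reads numbered 13896807 to 20026084 per sample at 1 week and 14096649 to 18127283 at 3 weeks. Levels are given as the deposited RPKM values, in which reads are divided by exon length and by the sequencing depth of a sample, and which so can be compared between genes. Changes are given as log2 fold changes, 3 weeks over 1 week, with standard errors (SE), from edgeR's fit of the exon reads of all genes after TMM normalization. Over the 12590 genes that passed the filter on low reads the median log2 fold change was 0.03 in this fit, whereas it was -0.16 for log2(RPKM + 0.1), which has no such normalization. RNA of KC markers was abundant at both times, with a summed level of 12800 to 15000 RPKM over 10 markers at 1 week and 8010 to 9370 RPKM at 3 weeks. Of these 10 markers, Krt5, a keratin of basal KCs, fell (log2 fold change -1.32, SE 0.18, adjusted p = 0.00103, edgeR) and Epcam, an adhesion molecule, rose (0.74, SE 0.15, adjusted p = 0.00591). Itga6, a basal integrin, was lower as well (-0.75, SE 0.24, adjusted p = 0.0391), but not without 1 week replicate 3 or 4 or 3 weeks replicate 2, 3 or 4 (-0.86 to -0.61), nor with a block on the table number described below (adjusted p = 0.1).

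Lox had the largest change of the 6 genes. Its gene (ENSMUSG00000024529) lies on the minus strand of chromosome 18, at 52516069 to 52529867. At 1 week the levels of Lox were 2.00, 2.62, 1.25 and 0.79 RPKM in replicates 1 to 4, from 183, 260, 86 and 67 exon reads. At 3 weeks they were 53.0, 39.0, 38.1 and 231 RPKM in replicates 1 to 4, from 4753, 3086, 3009 and 16312 exon reads. Every sample of 3 weeks was thus far above every sample of 1 week, and replicate 4 stood well above the other 3 of its time. Its mean RPKM was 1.66 ± 0.811 in the earlier and 90.2 ± 94.0 in the later samples (SD, n = 4). The log2 fold change was 5.88 (SE 0.75), and 2 of the 12590 tested genes had a larger one. Without 3 weeks replicate 4 the log2 fold change was 4.88. All exon reads of Lox were unique to the gene, and 52 of the 27212 reads on the gene at 3 weeks were intronic (0.191%).

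Tgm2 (ENSMUSG00000037820, chromosome 2, 158116402 to 158146436, minus strand) moved in the same direction. Its levels were 2.20, 3.22, 1.39 and 0.566 RPKM in replicates 1 to 4 at 1 week, from 193, 306, 92 and 46 exon reads. After 3 weeks they were 27.6, 21.3, 16.1 and 40.05 RPKM, from 2367, 1614, 1215 and 2711 exon reads. The groups did not overlap, and replicate 4 was the lowest sample of Tgm2 at 1 week and the highest at 3 weeks. Its mean RPKM was 1.84 ± 1.14 in the earlier and 26.2 ± 10.3 in the later samples (SD, n = 4). The fitted log2 fold change of Tgm2 was 3.97 (SE 0.50). A total of 35 tested genes had a larger log2 fold change than Tgm2.

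Only 29.5% of the exon reads of Tgm2 were unique to it, between 26.1% and 31.1% in every sample, and the unique reads numbered 12 to 94 at 1 week and 343 to 802 at 3 weeks. The exons of Tgm2 overlap those of 2 genes on the opposite strand. Rprd1b, which encodes a regulator of RNA polymerase II, shares 370 exon bases (8.03% of those of Tgm2), and the transcript Gm20412 shares 633 (13.7%). Together they hold 18.1% of all 59-base words of the Tgm2 transcripts, and no other gene holds any. This share is far smaller than that of the reads that were not unique, and where else those reads match was not tested. The library kit does not mark the strand, so reads of these overlaps cannot be assigned to a gene. As counted in the deposited values, Rprd1b had 475 to 670 exon reads at 1 week and 359 to 523 at 3 weeks. Of these, 164 to 226 and 116 to 174 were unique to it. Gm20412 had 0 to 5 exon reads in any sample. How the reads of the overlaps were shared between these genes and Tgm2 was not tested.

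Loxl2 (ENSMUSG00000034205, chromosome 14, 69609068 to 69695834, plus strand), which oxidises collagen IV of basement membranes among its substrates, was low at 1 week. Its levels were 0.136, 0.260, 0.245 and 0.472 RPKM in replicates 1 to 4, from 14, 29, 19 and 45 exon reads. At 3 weeks they were 3.36, 1.497, 0.473 and 3.34 RPKM, from 338, 133, 42 and 265 exon reads. The later samples thus ranged 7.09-fold, and replicate 3 was hardly above the highest sample of 1 week, so that the groups touch without overlapping in RPKM. In the deposited TPM values, another scaling of the same reads, they overlapped, with 0.991 in replicate 3 of 3 weeks and 1.39 in replicate 4 of 1 week. Its mean RPKM was 0.278 ± 0.140 in the earlier and 2.17 ± 1.43 in the later samples (SD, n = 4). The fitted log2 fold change of Loxl2 was 3.08 (SE 0.60).

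Of the exon reads of Loxl2, 65.0% were unique to the gene. Its nearest copy is the pseudogene Gm21451 on the same strand of chromosome 14 (69390854 to 69480287), which holds 42.8% of the 59-base words of the Loxl2 transcripts, and its reads were not analysed here. The unique reads alone, as counts not scaled to depth, numbered 10 to 24 at 1 week and 28 to 219 at 3 weeks. These counts did not overlap, whereas those of all exon reads did (42 in replicate 3 of 3 weeks, 45 in replicate 4 of 1 week). Loxl2 values are therefore less certain in level than those of Lox, Loxl1 and Loxl4, whose transcripts share no 59-base word with another gene.

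Loxl3 (ENSMUSG00000000693, chromosome 6, 83034173 to 83052562, plus strand), another oxidase of the scavenger receptor subgroup, had few reads in every sample. It was at 0.057, 0.211, 0.106 and 0.0985 RPKM in replicates 1 to 4 at 1 week, from 5, 20, 7 and 8 exon reads. At 3 weeks it was at 0.280, 0.344, 0.238 and 0.858 RPKM, from 24, 26, 18 and 58 exon reads. The groups did not overlap in RPKM, and replicate 4 was again highest at 3 weeks. In TPM they overlapped, with 0.499 in replicate 3 of 3 weeks and 0.601 in replicate 2 of 1 week. Mean RPKM was 0.118 ± 0.0655 in the earlier and 0.430 ± 0.289 in the later samples (SD, n = 4). The fitted log2 fold change of Loxl3 was 1.97 (SE 0.52). Counting error is large at such depth.

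The reads on Loxl3 also changed in kind. Intronic reads made up 1 of the 41 reads on the gene at 1 week (2.44%) and 43 of 169 at 3 weeks (25.4%), with 13, 4, 8 and 18 intronic reads in replicates 1 to 4 of 3 weeks against 0, 0, 0 and 1 at 1 week. In no other member did the share exceed 4.81% at either time. The 3′ end of Loxl3 overlaps Htra2, a mitochondrial protease gene on the opposite strand, over 11.6% of its exon bases. Htra2 had 506 to 849 exon reads at 1 week and 517 to 614 at 3 weeks. The share of exon reads of Loxl3 that crossed a splice junction was 20.0% at 1 week and 28.6% at 3 weeks.

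Loxl1 (ENSMUSG00000032334, chromosome 9, 58287738 to 58313186, minus strand), known for its part in elastic fibre upkeep, was at 0.478, 0.530, 0.401 and 0.241 RPKM in replicates 1 to 4 at 1 week. At 3 weeks it was at 0.504, 0.351, 0.554 and 0.888 RPKM. The groups overlapped, with 14 to 36 exon reads at 1 week and 19 to 43 at 3 weeks. Mean RPKM was 0.412 ± 0.126 against 0.574 ± 0.226 (SD, n = 4), and the fitted log2 fold change 0.63 (SE 0.36) was less than 2 standard errors from 0.

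Loxl4 (ENSMUSG00000025185, chromosome 19, 42593982 to 42612813, minus strand), the closest relative of Loxl2 in the stretch shown above, was at 2.01, 2.66, 1.87 and 1.91 RPKM in replicates 1 to 4 at 1 week. At 3 weeks it was at 1.54, 1.49, 0.838 and 2.33 RPKM. The groups overlapped through replicate 4, and the other samples of 3 weeks lay below all those of 1 week. Mean RPKM was 2.11 ± 0.371 in the earlier and 1.55 ± 0.609 in the later samples (SD, n = 4). The fitted log2 fold change of Loxl4 was -0.31 (SE 0.26). Loxl4 was the only member with a promoter in the RefSeq table used here, 250 bases before to 50 bases after the start. It held none of 7 short motifs on either strand (GGAATG of TEAD, TGANTCA of AP-1, CAGACA of SMAD, ACGTG of the hypoxia element, GGAAA of NFAT, CACCTG of an E-box and TATAAA), which occur in 7.79% to 61.5% of all 32544 promoters of the table.

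**Figure D1:**
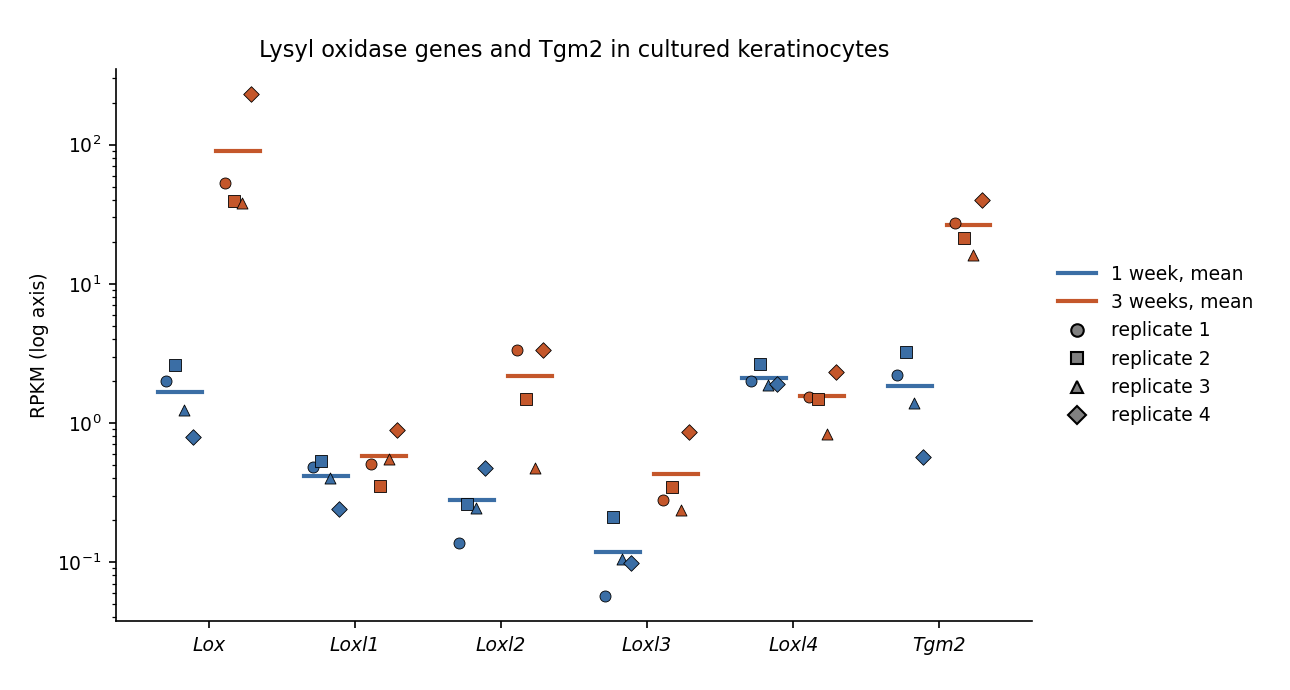
RPKM (log axis) of the 5 lysyl oxidase genes and Tgm2 in each of the 8 samples, with a symbol per replicate and a bar at the mean of each time (blue 1 week, orange 3 weeks, n = 4). The 3 weeks samples of Lox (38.1 to 231) and Tgm2 (16.1 to 40.05) lie far above those of 1 week, those of Loxl2 (0.473 to 3.36) and Loxl3 (0.238 to 0.858) lie above with the lowest sample close to them, and those of Loxl1 and Loxl4 overlap them.

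All 6 members passed the filter on low reads, and 4 of them (Lox, Tgm2, Loxl2 and Loxl3) were higher at 3 weeks without overlap of the RPKM values, as were 10.8% of all tested genes. For Loxl2 and Loxl3 this depends on the unit, since their TPM values overlapped. Across all genes edgeR's quasi-likelihood test called 4127 of 12590 at an adjusted p below 0.05 (32.8%), of which 1981 were higher (15.7% of those tested) and 2146 lower. On the log2(RPKM + 0.1) scale in limma, which has no TMM normalization, 1292 genes were higher and 3025 lower. Because the members were picked on this contrast, nothing is read from their count.

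The order of the genes changed with time. At 1 week Loxl4, Tgm2 and Lox led with overlapping levels, followed by Loxl1, Loxl2 and Loxl3, each of which overlapped the next. At 3 weeks Lox was above Tgm2 in each of the 4 samples, although the lowest Lox (38.1 RPKM) was under the highest Tgm2 (40.05 RPKM). Far below them came Loxl2, Loxl4, Loxl1 and Loxl3, which again overlapped their neighbours.

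The 5 lysyl oxidases summed to 4.58 ± 1.24 RPKM in the 1 week samples (SD, n = 4), from 3.51 to 6.29. In the 3 weeks samples the sum was 95.0 ± 95.9 RPKM, from 40.2 to 238. At 1 week this sum was made up mainly of Loxl4, with 47% ± 5.63, and Lox, with 34.8% ± 9.48. Loxl1 contributed 8.97% ± 1.67, Loxl2 6.71% ± 4.71 and Loxl3 2.53% ± 0.916. At 3 weeks Lox made up 93.3% ± 3.03 of the sum, from 90.3% to 96.9% of it in single samples. Loxl2 then took 2.95% ± 2.12, Loxl4 2.29% ± 1.05, Loxl1 0.858% ± 0.411 and Loxl3 0.558% ± 0.190. The lysyl oxidase RNA of the cultures was thus mixed at 1 week and nearly all Lox at 3 weeks, and the share of Lox did not overlap between the times. From unique exon reads per kilobase the share of Loxl2 was 4.01% at 1 week and 1.94% at 3 weeks, there below the 2.32% of Loxl4, so the order of these genes is not settled.

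**Figure D2:**
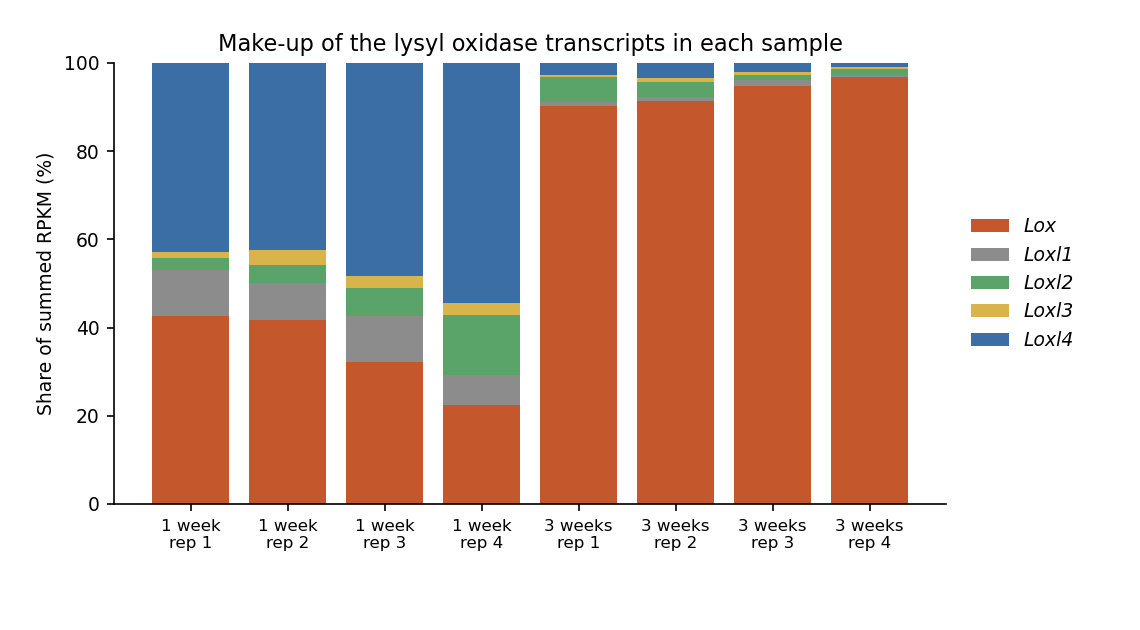
Share (%) of each lysyl oxidase gene in the summed RPKM of the 5 genes, 1 bar per sample. Lox makes up 22.5% to 42.7% of the bar in the 1 week samples and 90.3% to 96.9% in the 3 weeks samples, and Loxl4 goes from 42.3% to 54.4% down to 0.976% to 3.48%.

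Samples of the same time differed more in Lox than in most genes. The SD of its log2 CPM (counts scaled to library size) was 0.76 at 1 week and 1.19 at 3 weeks, against a median of 0.22 and 0.34 over all tested genes, which put Lox at the 94.1 and 95.4 percentile. Loxl2 was as variable, with 0.71 and 1.24 (percentiles 92.9 and 96.0). Tgm2 went the other way, with an SD of 1.07 at 1 week (percentile 97.7) and 0.49 at 3 weeks (69.2). Loxl4 was the steadiest member at 1 week, with 0.23, close to the median gene.

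The deposited tables carry a number besides the replicate number, which the labels do not define. It is 46, 47, 49 and 90 for replicates 1 to 4 of 1 week and 46, 49, 57 and 90 for those of 3 weeks, so 3 numbers occur at both times. Between the samples with the same number, Lox was 26.5-fold (46), 31.3-fold (49) and 292-fold (90) higher at 3 weeks in RPKM. The ratios of Tgm2 were 12.5, 15.3 and 70.8 in the same order. Number 90 thus joined the lowest Lox and Tgm2 of 1 week with the highest of 3 weeks. Loxl2 was higher by a ratio of 24.7, 6.11 and 7.07, and Loxl3 by 4.90, 3.24 and 8.71. Loxl1 had ratios of 1.06, 0.873 and 3.69, and Loxl4 had 0.768, 0.796 and 1.22, so neither kept a direction.

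**Figure D3:**
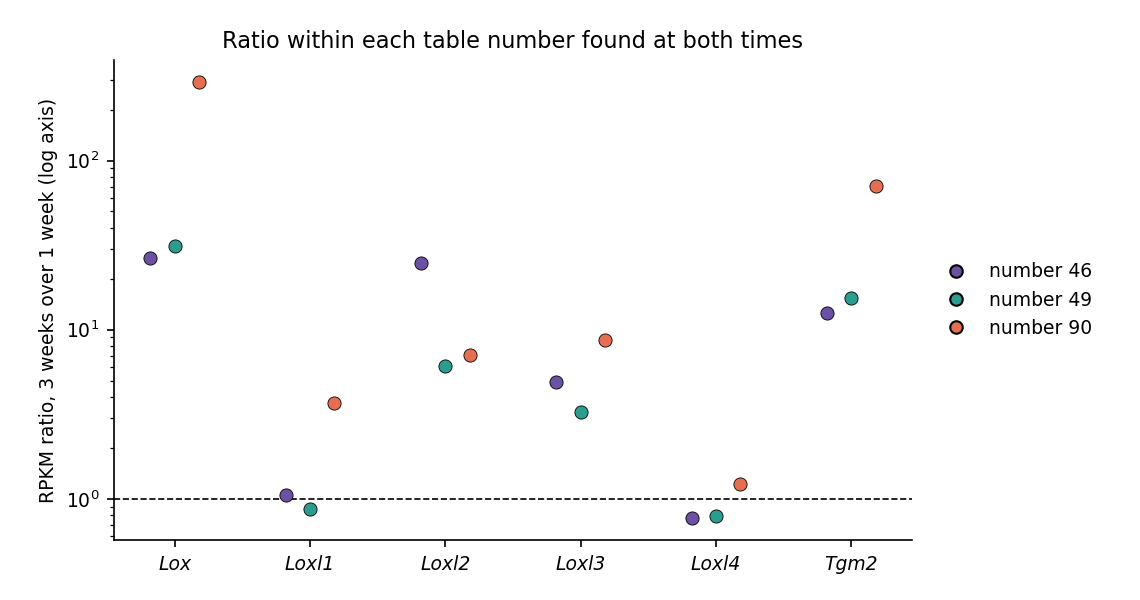
Ratio of RPKM, 3 weeks over 1 week (log axis), between the samples that carry the same table number (46, 49 or 90), 1 point per number, with a dashed line at a ratio of 1. All 3 points of Lox, Loxl2, Loxl3 and Tgm2 lie above the line, number 90 is highest for Lox (292) and Tgm2 (70.8), and Loxl1 and Loxl4 have points on either side.

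The genes whose course over the 8 samples was most like that of Lox were found by the root mean square (RMS) difference of centred log2 CPM (counts scaled to library size). They were Cntnap2 (0.46), Upk1b (0.71), Catspere2 (0.77), Col11a1 (0.82) and Tgm2 (0.88). Upk1b, a tetraspanin of the urothelium, went from 0.111 ± 0.0405 to 6.79 ± 7.63 RPKM and, like Lox, was spread widely at 3 weeks, from 2.48 to 18.2 RPKM. Col11a1, a minor chain of cartilage-type collagen fibrils, went from 0.0164 ± 0.0111 to 0.710 ± 0.710 RPKM (SD, n = 4). Cntnap2 and Catspere2 stayed below a mean of 1 RPKM at both times. For Tgm2 the nearest genes were Doc2b (0.49), Postn (0.50), Ano3 (0.51), Dmc1 (0.52) and Clu (0.53), and Lox was at rank 39. Clu, a secreted chaperone, was the one of these with a high level, and went from 17.4 ± 6.39 to 323 ± 110 RPKM, while Postn went from 0.349 ± 0.124 to 5.34 ± 3.32 RPKM.

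The rest of the cross-linking system was looked at through 6 gene lists, chosen with earlier results of these data known. They share no gene with each other, but some with the fibroblast markers below. Together they hold 81 genes, of which 60 were tested, and 21 rose and 4 fell (41.7% called, against 32.8% of all tested genes), with a median log2 fold change of 0.49. Without 1 week replicate 1, 16 genes of the lists were called instead of 25, and 3202 over all genes instead of 4127. The larger share in the lists thus depends in part on that sample. All adjusted p-values below are from edgeR's quasi-likelihood test with Benjamini-Hochberg adjustment over all tested genes. Wherever no gene of a list is said below to have risen or fallen in edgeR, the count was 0 as well at an unadjusted p under 0.05, in DESeq2 and in limma on log2(RPKM + 0.1).

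No other transglutaminase passed the test with all samples. Of 8 genes of this list 3 were tested, and 0 of them passed. Tgm1 was the highest of them in RPKM, at 5.65, 8.69, 7.20 and 11.8 in the replicates of 1 week and 1.22, 1.5, 1.85 and 27.9 in those of 3 weeks. Replicate 4, the sample with the most Lox and Tgm2, thus had far more Tgm1 than the other 3, which lay below all samples of 1 week, and the log2 fold change was 0.07 (SE 0.93, adjusted p = 0.962). Without 3 weeks replicate 4 Tgm1 was lower at 3 weeks (-2.25, adjusted p = 0.00109 in edgeR), and DESeq2 gave it no adjusted p. Tgm3, an enzyme of the granular layer and the hair follicle, had 0.775 ± 0.570 against 1.14 ± 0.709 RPKM (0.74, SE 0.62, adjusted p = 0.393). Tgm5, an epidermal transglutaminase, had 0.404 ± 0.280 against 0.171 ± 0.147 RPKM (-1.09, SE 0.71, adjusted p = 0.27). Tgm4, Tgm6, Tgm7 and F13a1 had too few reads, and Epb42 had 0 reads in all samples. At 3 weeks Tgm2 was above Tgm1 in each of the 4 samples, whereas at 1 week it was below Tgm1 in each. Only 38.5% of the exon reads of Tgm1 and 29.5% of those of Tgm2 were unique, so this order rests largely on reads that were not.

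Among genes that modify and process collagen, 7 of 19 tested rose and 1 fell, with a median log2 fold change of 0.41. P4ha2, a prolyl hydroxylase subunit, rose from 5.69 ± 0.236 to 16.4 ± 2.54 RPKM (log2 fold change 1.68, SE 0.12, adjusted p = 0.000164). Bmp1, a protease that removes the propeptides of collagens and of Lox, rose from 8.22 ± 1.42 to 24.2 ± 8.47 RPKM (1.71, SE 0.23, adjusted p = 0.000942). Pcolce2, an enhancer of that cleavage, rose from 6.99 ± 2.45 to 15.2 ± 5.62 RPKM (1.30, SE 0.34, adjusted p = 0.018). Plod2, the lysyl hydroxylase of collagen telopeptides, P3h1, P3h4 and Fkbp10 were the others that rose, though P3h1 (0.52 to 0.77 over all omissions) did not pass without 1 week replicate 1, 3 or 4 or 3 weeks replicate 1 or 2. P3h4 (0.44 to 0.63) did not without 1 week replicate 1, and Fkbp10 (0.47 to 0.69) not without 1 week replicate 1, 2 or 4 or 3 weeks replicate 1 or 2. P3h2, a prolyl hydroxylase of collagen IV, fell from 3.83 ± 0.604 to 1.68 ± 0.746 RPKM (-1.06, SE 0.32, adjusted p = 0.033). The call of Pcolce2 was lost without 1 week replicate 1, 2 or 4 or 3 weeks replicate 2 (1.15 to 1.55 over all omissions). That of P3h2 was lost without any 1 week replicate or without 3 weeks replicate 1 or 2 (-1.23 to -0.82).

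The fibrillar collagens themselves, the main substrates of Lox, were low. Of 8 tested genes 2 rose and none fell, and their summed level was 3.87 to 5.74 RPKM at 1 week and 3.50 to 13.5 RPKM at 3 weeks. Col11a1, named above, rose with a log2 fold change of 5.58 (SE 0.78, adjusted p = 0.00111), or 4.66 without 3 weeks replicate 4. Col5a2, a chain that regulates fibril diameter, was at 1.24, 1.06, 1.21 and 0.757 RPKM at 1 week and 9.20, 3.88, 1.24 and 5.44 RPKM at 3 weeks (2.34, SE 0.48, adjusted p = 0.00647). As for Loxl2, its replicate 3 of 3 weeks lay near the samples of 1 week. Col1a1 (1.24 ± 0.443 against 1.58 ± 1.23 RPKM, adjusted p = 0.466, and a log2 fold change of 0.48 that was -0.14 without 3 weeks replicate 4), Col1a2 and Col3a1, the collagens of the dermis, did not pass.

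Among proteins of elastic fibres 2 of 11 tested rose and 2 fell. Fbln2 rose from 2.44 ± 0.621 to 8.90 ± 2.67 RPKM (2.02, SE 0.24, adjusted p = 0.000635). Efemp2, the fibulin that brings Lox to elastic fibres, rose from 8.05 ± 0.995 to 12.3 ± 3.14 RPKM (0.80, SE 0.23, adjusted p = 0.0265). This call was lost without 1 week replicate 1, 3 or 4 or 3 weeks replicate 1 or 2 (0.61 to 0.98 over all omissions), and in the 6 samples with table numbers found at both times, with the number as a block (0.62, adjusted p = 0.0582). Fbln1 fell from 7.04 ± 0.520 to 1.89 ± 0.492 RPKM (-1.75, SE 0.18, adjusted p = 0.000369), and Ltbp1, which stores latent TGF-beta, from 4.42 ± 1.36 to 1.62 ± 0.568 RPKM (-1.31, SE 0.29, adjusted p = 0.00838).

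Matrix partners of Lox and Tgm2 rose in 7 of 12 tested genes, and none fell, with a median log2 fold change of 0.76. Fn1, the fibronectin that both Lox and Tgm2 bind, was at 11.9, 14.1, 28.5 and 11 RPKM at 1 week and 930, 314, 101 and 294 RPKM at 3 weeks (log2 fold change 4.78, SE 0.68, adjusted p = 0.00117). Without 3 weeks replicate 1 the log2 fold change of Fn1 was 3.99. Postn, periostin, which helps Bmp1 to activate Lox, had a log2 fold change of 4.07 (SE 0.49, adjusted p = 0.000615). Thbs1, thrombospondin 1, rose from 196 ± 55.5 to 944 ± 486 RPKM (2.40, SE 0.40, adjusted p = 0.0024). Tnc, Itgb1, Mfge8 and Sdc4 were the others that rose. Tnc (1.29 to 1.85 over all omissions) did not pass without 1 week replicate 1, 3 or 4 or 3 weeks replicate 1, nor Sdc4 (0.54 to 0.75) without 1 week replicate 1 or 2 or 3 weeks replicate 1 or 2. The order of the 3 weeks samples differed between these genes and the members, since Fn1 was highest in replicate 1, whereas Lox, Tgm2, Thbs1 and Postn were highest in replicate 4.

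Lysyl oxidases take up their copper in the secretory pathway, and of 7 tested genes of copper supply 3 rose and 1 fell. Slc31a2, a copper transporter of inner membranes, rose from 12.3 ± 2.13 to 23.9 ± 2.25 RPKM (1.13, SE 0.16, adjusted p = 0.0012). Atp7a, the pump that loads copper into secreted enzymes, rose from 2.31 ± 0.333 to 3.68 ± 1.57 RPKM (0.82, SE 0.25, adjusted p = 0.0323), but not without any 1 of the 1 week replicates (0.52 to 0.94 over all omissions). Atox1, the chaperone that brings copper to Atp7a, rose from 127 ± 8.80 to 173 ± 25.3 RPKM (0.62, SE 0.16, adjusted p = 0.0164), a call lost without 1 week replicate 2 (0.46 to 0.72). With the table number as a block over the 6 samples that share one, neither passed (adjusted p = 0.0551 for Atp7a and 0.117 for Atox1, edgeR). Slc31a1, the importer at the cell surface, fell from 19.4 ± 2.00 to 12.97 ± 0.617 RPKM (-0.41, SE 0.12, adjusted p = 0.0307). Its call was lost without 1 week replicate 3 or 4 or 3 weeks replicate 1 or 2 (-0.49 to -0.36), and 12.1% of its exon reads were unique to it. Ccs (0.51, adjusted p = 0.0563), Steap3 (-0.41, adjusted p = 0.284) and Steap4 (-0.50, adjusted p = 0.705) did not pass. Without 3 weeks replicate 4, which had 5.72 RPKM of Steap4 against 0.238 to 0.425 in the others, Steap4 was lower (-2.76, adjusted p = 0.000675) and Ccs higher (0.59, adjusted p = 0.0352).

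**Figure D4:**
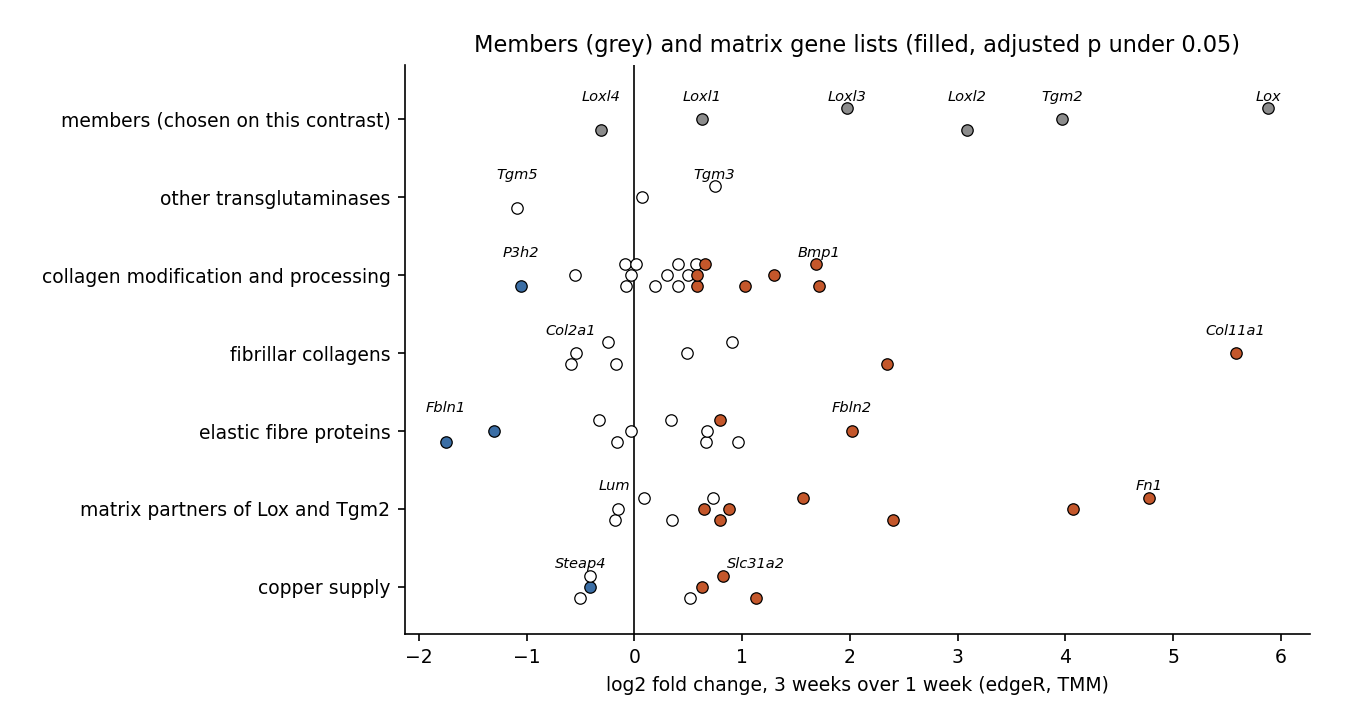
Log2 fold change, 3 weeks over 1 week, from edgeR (horizontal axis) for each tested gene of the 6 lists and for the 6 members (grey), which were chosen on this contrast. Filled list points passed an adjusted p under 0.05 (orange higher, blue lower), open ones did not, and the extreme genes of each list are named. The members reach from -0.31 (Loxl4) to 5.88 (Lox), Col11a1 (5.58) and Fn1 (4.78) lie furthest right among the lists, and no point is filled in the row of other transglutaminases.

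Since Lox is known as a product of fibroblasts and smooth muscle cells, markers of other cells were measured in the same samples. In bulk RNA, fewer cells of a type and less RNA per cell cannot be told apart. Of the 12 fibroblast markers 11 were tested, none rose, and 2 fell, Fbln1 (above) and Pdgfrb (-1.74, SE 0.40, adjusted p = 0.0102, but 0.0502 with the table number as a block). The summed level of the 12 was 12.0 to 14.9 RPKM at 1 week and 5.57 to 8.48 RPKM at 3 weeks. Most of this drop came from Fbln1 (7.04 ± 0.520 against 1.89 ± 0.492 RPKM), and the sum of the other markers overlapped between the times. Pdgfra was at 0.269 ± 0.102 against 0.184 ± 0.0379 RPKM, Dcn at 0.636 ± 0.236 against 0.588 ± 0.349 RPKM, Lum at 0.317 ± 0.0838 against 0.247 ± 0.153 RPKM, both with a direction that turned when single samples were left out, and Thy1 at 1.22 ± 0.428 against 0.734 ± 0.412 RPKM. Twist2 (adjusted p = 0.0976), Dpt (0.706) and the other tested fibroblast markers did not pass, and Fap had 0 or 1 read per sample. The sample with the most Lox, 3 weeks replicate 4, had the highest Col1a1 of all samples, at 3.34 RPKM. Among the 3 weeks samples it also had the highest Col1a2 (0.367 RPKM), Pdgfrb (0.186 RPKM) and Thy1 (1.3 RPKM). It had the lowest Col3a1 (0.312 RPKM), Dcn (0.257 RPKM) and Twist2 (0.0214 RPKM) of its time. The other tested markers, among them Pdgfra (0.156 RPKM), lay between the extremes of that time.

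Some contractile genes rose as well. Of 6 smooth muscle markers 4 were tested and 3 rose, and the summed level went from 195 to 461 RPKM at 1 week to 1280 to 3220 RPKM at 3 weeks. Acta2, smooth muscle actin, was at 279, 364, 259 and 138 RPKM at 1 week and 2690, 2290, 2110 and 1110 RPKM at 3 weeks (log2 fold change 3.15, SE 0.37, adjusted p = 0.000585). Cnn1 (3.38, SE 0.43, adjusted p = 0.000717) and Tagln (2.53, SE 0.43, adjusted p = 0.00255), which encode actin-binding proteins, rose too, while Smtn (-0.36, adjusted p = 0.422) did not pass. Of the defining markers of mature smooth muscle, Des was at 0.132 ± 0.0195 against 0.0851 ± 0.0538 RPKM. Myh11 was at 0.0138 to 0.0447 RPKM at 1 week and at 1.21, 0.376, 0.032 and 1.5 RPKM in the replicates of 3 weeks. Acta2 was lowest of its time in replicate 4, both at 1 week and at 3 weeks. In 3 weeks replicate 4, the sample with the most Lox, Cnn1 (11.1 RPKM) and Tagln (138 RPKM) were also lowest of their time. Myh11 (1.5 RPKM), by contrast, was highest there, and Smtn (12.9 RPKM) and Des lay between the extremes. The part of other cells in these values was not tested.

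No tested marker of the remaining cell types rose. Immune cell markers summed to 14.4 to 20.2 RPKM at 1 week and 6.75 to 12.9 RPKM at 3 weeks, mostly from Cd68. Melanocyte markers summed to 3.54 to 21.4 RPKM and 1.64 to 5.94 RPKM. Endothelial markers summed to 0.434 to 0.646 RPKM at 1 week and 0.285 to 0.504 RPKM at 3 weeks, and neither of the 2 tested passed. Of the immune cell markers 1 of 6 was tested, Cd68, which was lower at 3 weeks (-0.89, SE 0.23, adjusted p = 0.018), though not without 1 week replicate 4 or 3 weeks replicate 1 or 2 (-1.12 to -0.76), and Cd207, which marks Langerhans cells, had 0 reads. Of 5 tested melanocyte markers 1, Pmel, was called lower in edgeR and 2 in DESeq2 (Pmel -2.06, SE 0.59, adjusted p = 0.0266), and not without 1 week replicate 3 or 4 or 3 weeks replicate 1 or 3 (-2.35 to -1.54).

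**Figure D5:**
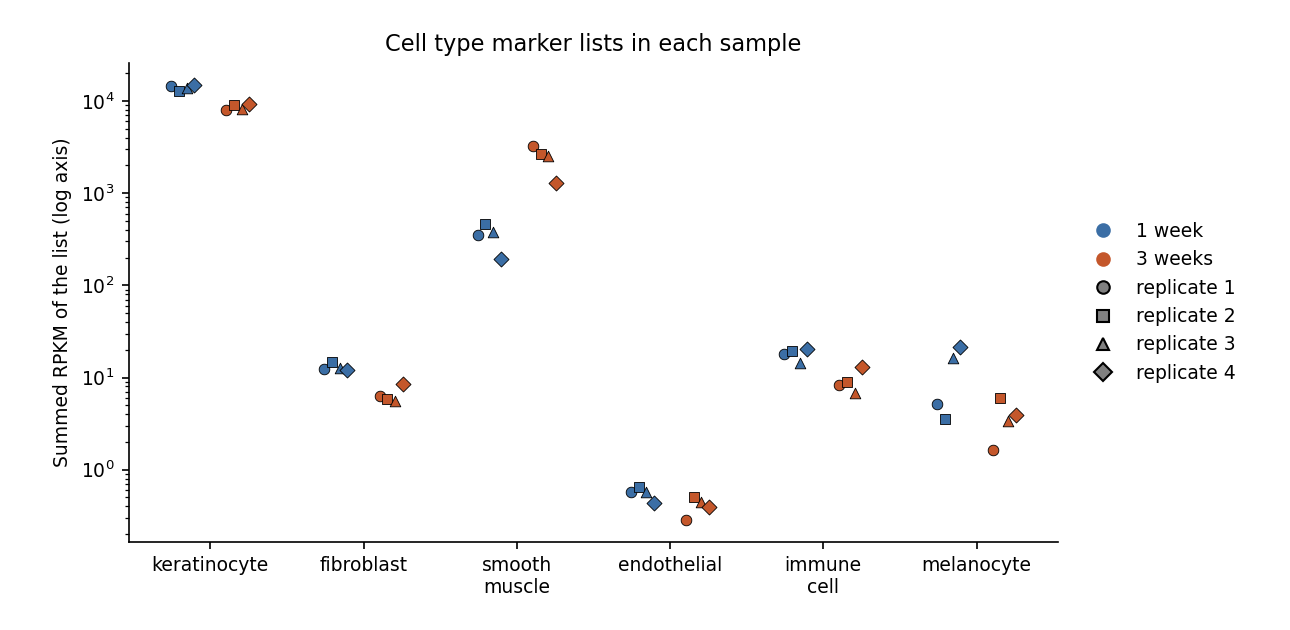
Summed RPKM (log axis) of each cell type marker list in each of the 8 samples, with a symbol per replicate (blue 1 week, orange 3 weeks). The smooth muscle list is higher at 3 weeks (1280 to 3220) than at 1 week (195 to 461). The fibroblast list is lower (5.57 to 8.48 against 12.0 to 14.9), mostly through Fbln1. The keratinocyte list is the highest in every sample (8010 to 15000), mostly through Krt5 and Krt14.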

How the data were processed

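RNA of tail KCs cultured for 1 or 3 weeks was analysed from 8 tables that the authors deposited, 1 per sample. The authors made poly(A) libraries and aligned the reads to GRCm38 in the CLC Genomics Workbench (version 12.0). The deposited columns hold read counts per gene (total and unique exon reads, gene and intron reads, not normalized) and RPKM and TPM values, written with decimal commas. No other data of the study were analysed here.

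The test of exon reads was that of edgeR 4.0.16 (R 4.3.3, filterByExpr, TMM, glmQLFit and glmQLFTest, Benjamini-Hochberg, threshold 0.05), without pairing. Alternatives were DESeq2 1.42.0, limma 3.58.1 on RPKM with pseudocounts of 0.1 and 1, upper-quartile normalization, no filter, unique or gene reads, blocks, and each sample left out in turn. The procedure was tested on simulated data. The smallest chi-square per degree of freedom between replicates of 1 time was 15.4, so each sample was counted once. Coordinates are those of the tables, and words of 59 bases were compared over the GENCODE vM21 transcripts.

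The members and lists were chosen with earlier results of these data known. Named from each list were up to 3 genes called in each direction with the largest change and, of other transglutaminases, fibroblast markers and copper supply, every tested gene, besides the 5 genes nearest to Lox and to Tgm2 in profile. Others named only as passing, or for their low level, were added after their values were seen.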

Additional observations from a re-analysis of the deposited data

Results flagged for a closer look

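Lox at 3 weeks was far higher in replicate 4 (230.9 RPKM) than in the other 3 samples, with a gap to the nearest sample of 0.922 of the whole range, which is past Dixon's critical value for 4 samples. Loxl3 at 3 weeks was also highest in replicate 4 (0.858 RPKM), with a gap of 0.830 of the range, just past the same value. These are 2 of 12 groups looked at. For normally distributed values such a gap occurs by chance in about 5% of groups. RPKM values need not be so distributed, and the gap on a log scale was not tested.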

How the results depend on the processing

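Over 18 alternatives no member and none of the 34 called list genes changed direction, and 18 of the 34 passed the threshold in every one. The log2 fold change of Lox ran from 4.88 (without 3 weeks replicate 4) to 6.18 with single samples left out, and was 4.69 in limma on log2(RPKM + 1). On this scale Loxl2 was at 1.18 and Loxl3 at 0.34, and on log2(RPKM + 0.1) Loxl3 was at 1.19, since a pseudocount understates the change of genes with levels near it. Of 16 named genes that were not called, 4 changed direction. Tgm1 ran from -2.25 (without 3 weeks replicate 4) and -0.06 (without 1 week replicate 1) to 0.44 with single samples left out, and was at -1.27 with the replicate block, -1.01 with the table number block, -1.31 and -0.97 in limma. Dcn ran from -0.48 to 0.34 (-0.48 without 3 weeks replicate 3, -0.01 and -0.06 without 1 week replicates 3 and 4), and was at -0.07, -0.50, -0.18 and -0.057 in the same order. Col1a1 ran from -0.14 (without 3 weeks replicate 4) to 0.75 and Lum from -0.61 to 0.19 (without 3 weeks replicate 1). Twist2 passed in limma on log2(RPKM + 0.1) (-1.11) and Ccs in DESeq2 (0.52). The 6 lists together had 16 to 33 called genes with single samples left out and 19 to 27 otherwise. Over all genes tested, 3015 to 4861 were called with single samples left out and 4882 in DESeq2.

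Samples with the same replicate number had correlated deviations of r = -0.189, -0.158, -0.11 and 0.235, and those with the same table number r = -0.189 (46), 0.215 (49) and 0.235 (90), so neither was taken as a pairing for every sample. With the replicate block 2867 genes were called, Lox was at 5.46 and Tgm2 at 4.08, and Itga6, Slc31a1, P3h1, P3h4, Fkbp10, Tnc and Sdc4 did not pass. With the 6 samples whose table number occurs at both times and that number as a block, 3109 genes were called, Lox was at 5.93 and Tgm2 at 4.57, and Itga6, Pdgfrb, Efemp2, Atp7a, Atox1, P3h4 and Sdc4 did not pass. The same samples without a block, an alternative chosen after seeing the data, gave 3860 genes, and Dcn at -0.51. Depth limits Loxl1 and Loxl3 most.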
